A study of Mus musculus with 30 samples.

Results

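The genes described here are 10 markers and regulators of epithelial-mesenchymal transition: Cdh1, Epcam and Esrp1 on the epithelial side, and Cdh2, Vim, Zeb1, Zeb2, Snai1, Snai2 and Twist1 on the mesenchymal side. They were chosen by symbol, are 10 of 55291 gene symbols in the expression table, and all 10 were among the 17944 genes that reached 1 TPM in at least 3 libraries and were tested. TPM is a transcript level corrected for length and scaled to the same total in every library. The 30 mouse RNA-seq libraries came from tumours of 10 lines grown under the skin, with 3 libraries per line: MC38OVA (MC38 carrying ovalbumin) and MC38 (colon carcinoma), EMT6 (mammary carcinoma), LL2 (Lewis lung carcinoma), CT26NYESO1 (CT26 carrying the antigen NY-ESO-1) and CT26 (colon carcinoma), CMS5a (fibrosarcoma), Renca (renal carcinoma), and B16F10 and B16F1 (melanoma sublines). The study's stated purpose was to find cancer types suited to OK-432, a streptococcal preparation injected into tumours.

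The labels name BALB/cJ and C57BL/6J hosts, and mice with and without OK-432 for 24 hours, but tie neither host nor treatment to a library, so neither was compared. They call all libraries CD45+ immune cells, while the extraction text describes RNA from suspensions of digested tumours 10 mm long. The data go against a pure immune sample. The 9 melanocyte genes summed to between 1799 and 14142 TPM in the 6 B16F10 and B16F1 libraries, and Krt8, a keratin of simple epithelia, averaged 926 TPM in Renca. Ptprc, which encodes CD45, averaged only 5.39 TPM in B16F10 and 10.1 TPM in B16F1, against 154 TPM in MC38OVA. The libraries are therefore read as mixtures of tumour, stromal and immune cells, in which fewer cells of a type and less RNA per cell cannot be told apart. Mitochondrial transcripts took 9.17% to 39.0% of TPM, and haemoglobin transcripts 0.0222% to 7.70%. Depth is unknown, because TPM keep no read numbers. Nothing says that the 3 libraries of a line came from separate mice, so p values measure the spread between these samples only.

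Epithelial cells hold together through E-cadherin (Cdh1) junctions and the adhesion molecule EpCAM, and the splicing factor Esrp1 maintains epithelial forms of many transcripts. During the transition, factors of the Zeb, Snail and Twist families repress such genes, N-cadherin (Cdh2) can replace E-cadherin, and the intermediate filament vimentin (Vim) accumulates. Several of these genes are not specific to tumour cells: leukocytes and fibroblasts contain abundant vimentin, macrophages, NK cells and effector T cells express Zeb2, and the melanocyte lineage uses Zeb2 and Snai2.

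Zeb and Snail proteins bind the E-box CAGGTG, so the promoters of the genes on both sides of this repression are shown. RefSeq windows on GRCm38.p6, from 250 bases before to 50 bases after a start, were found for 5 of the 10 genes, in 8 windows, and both strands were searched, so that the reverse complement CACCTG counts as a match; no other motif was searched. Epcam is shown as a target gene of the epithelial side, Snai1 as a repressor gene, and Vim and Twist1 as mesenchymal genes without the motif. Capitals mark the E-box, in either orientation.
Epcam, chr17:87635729-87636028, plus strand: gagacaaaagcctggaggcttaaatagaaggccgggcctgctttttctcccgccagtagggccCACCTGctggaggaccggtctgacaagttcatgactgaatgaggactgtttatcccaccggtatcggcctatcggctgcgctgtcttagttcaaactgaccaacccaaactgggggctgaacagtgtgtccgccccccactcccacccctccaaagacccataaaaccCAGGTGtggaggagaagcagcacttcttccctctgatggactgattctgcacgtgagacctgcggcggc
Snai1, chr2:167537945-167538244, plus strand: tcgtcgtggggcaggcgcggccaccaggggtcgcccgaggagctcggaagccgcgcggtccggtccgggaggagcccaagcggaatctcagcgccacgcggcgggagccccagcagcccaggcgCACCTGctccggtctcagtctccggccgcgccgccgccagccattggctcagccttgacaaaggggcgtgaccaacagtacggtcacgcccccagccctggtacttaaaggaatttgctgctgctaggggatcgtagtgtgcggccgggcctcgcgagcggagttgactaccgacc
Vim, chr2:13574061-13574360, plus strand: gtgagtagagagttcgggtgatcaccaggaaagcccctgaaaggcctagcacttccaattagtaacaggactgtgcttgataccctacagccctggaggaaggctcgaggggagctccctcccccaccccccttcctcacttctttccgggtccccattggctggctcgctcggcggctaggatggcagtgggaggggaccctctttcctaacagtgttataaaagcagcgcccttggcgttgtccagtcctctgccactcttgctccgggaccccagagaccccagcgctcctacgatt
Twist1, chr12:33957421-33957720, plus strand: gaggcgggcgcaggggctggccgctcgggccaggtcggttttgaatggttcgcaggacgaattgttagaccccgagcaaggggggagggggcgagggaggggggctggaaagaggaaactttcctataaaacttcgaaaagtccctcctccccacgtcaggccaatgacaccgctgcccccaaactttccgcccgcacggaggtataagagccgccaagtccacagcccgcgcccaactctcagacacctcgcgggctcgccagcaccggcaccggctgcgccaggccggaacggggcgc
The Epcam window held 2 matches, beginning at -187 and -19 from the start, and the Snai1 window held 1, at -126. Neither the Vim and Twist1 windows nor the 4 windows of Zeb2 held the letters. Of all 32851 promoter windows, 20.2% held at least 1 match and 2.88% held 2 or more. A match shows only that these letters are present.

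Cdh1 (chr8:106603351-106670246, mm10, plus strand) separated Renca from the other lines. Its levels were 55.3, 73.5 and 73.0 TPM in the Renca libraries, against line means of 0.648 to 4.26 TPM elsewhere. The next lines were EMT6 with 4.31, 5.46 and 3.0 TPM and LL2 with 5.46, 3.02 and 3.80 TPM, and the lowest was B16F10 with 0.989, 0.266 and 0.689 TPM. No library outside Renca came near the lowest Renca library. On the log2(TPM + 1) scale, used for all folds here, Cdh1 was higher in Renca than in the mean of the other 9 lines by 4.54 (SE 0.18, limma adjusted p = 6.4e-18). It was lower in B16F10 by -1.44 (adjusted p = 1.1e-07), in CT26NYESO1 by -1.18 and in CMS5a by -1.02, the last of which fell short of a fold of 1 under 7 of 43 alternatives, among them leaving out CMS5a replicate 2 (-0.92). Below Renca, no step between lines next to each other in the order of Cdh1 passed the test.

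Epcam (chr17:87635979-87651129, plus strand), the gene of the first printed promoter, had 9.75, 10.0 and 10.2 TPM in Renca and 1.85, 1.61 and 1.83 TPM in EMT6. Every library of the other 8 lines was below 1 TPM and 4 libraries were listed at 0. The Renca and EMT6 libraries overlapped neither each other nor the rest. Epcam passed the filter only through the 6 libraries of these 2 lines, so it had to differ there, and its fold of 3.04 in Renca (SE 0.12) and the step of 1.02 from EMT6 to MC38 are given as descriptions. Between Renca and EMT6, the lines that both passed it, the difference was 1.99 (limma adjusted p = 2.6e-11). Across the 10 line means Cdh1 and Epcam correlated at r = 0.94, a description over lines that share the high Renca point.

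Esrp1 (chr4:11331933-11386783, minus strand) did not follow the other epithelial genes. It was highest in the melanoma line B16F1, with 6.00, 1.33 and 2.96 TPM, while Renca had 0, 0 and 0.140 TPM and EMT6 had 0, 0.00807 and 0 TPM. CMS5a, a fibrosarcoma, came next with 0.383, 0.719 and 0.757 TPM, and 10 libraries were listed at 0. Esrp1 passed the filter through the 3 B16F1 libraries alone, so it had to differ there and its fold in B16F1 (1.85, adjusted p = 6.9e-11) is given as a description. The B16F1 library with the most Esrp1 had the lowest leukocyte score of that line (3.51, against 4.90 and 4.33 in replicates 2 and 3) and the highest sum of melanocyte genes (7797 TPM, against 1799 and 5305 TPM); their part in the Esrp1 level was not tested. Esrp2, the paralog of Esrp1, averaged 2.36 ± 0.672 TPM in Renca and 2.06 ± 0.311 TPM in EMT6 (SD, n = 3 each). It averaged at most 0.0951 TPM in any other line. Esrp2 passed the filter through Renca and EMT6 alone, so it had to be high there and these levels are given as a description.

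**Figure D1:**
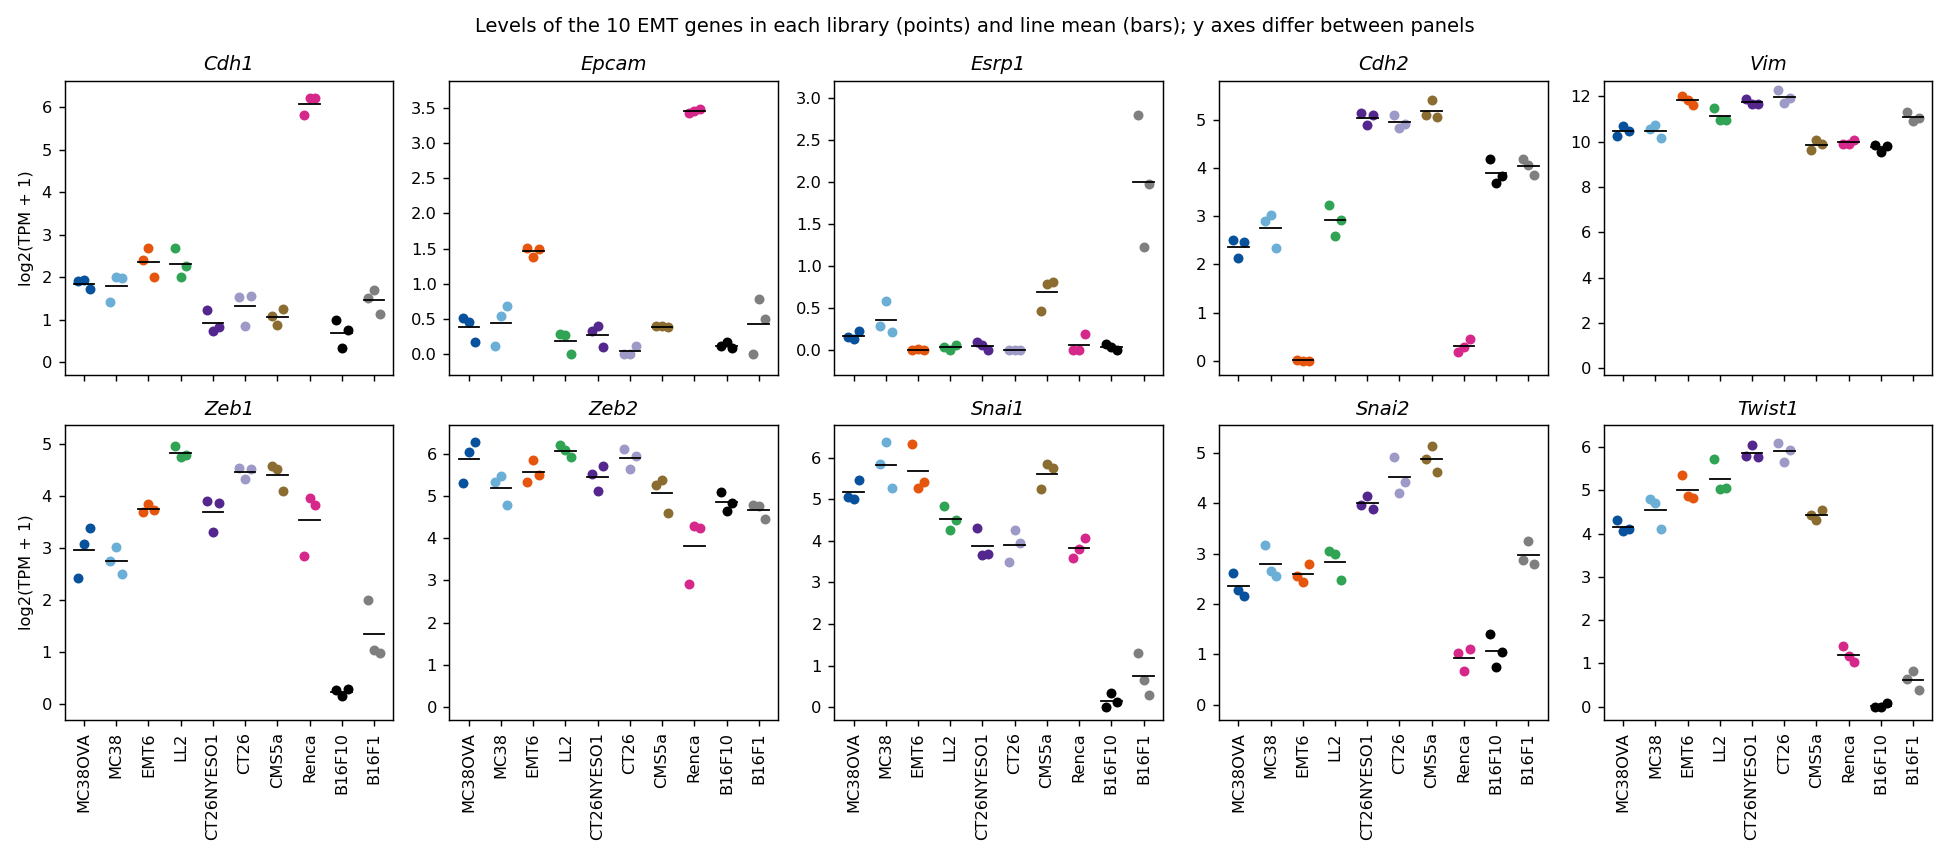
Level of each of the 10 genes as log2(TPM + 1) (y axis, which differs between panels) in the 3 libraries of each line (points), with the line mean as a bar. Cdh1 and Epcam stand high in Renca, Esrp1 in B16F1, and Snai1 and Twist1 lie near 0 in B16F10 and B16F1.

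Cdh2 (chr18:16588877-16809246, minus strand), the mesenchymal cadherin, divided the lines into steps. CMS5a had 33.5, 41.6 and 32.3 TPM, CT26NYESO1 34.4, 28.7 and 33.4 TPM, and CT26 33.5, 27.5 and 29.2 TPM, and these 3 lines overlapped. B16F1 (17.3, 15.8 and 13.6 TPM) and B16F10 (17.2, 11.9 and 13.2 TPM) formed a middle level. LL2, MC38 and MC38OVA averaged 6.71, 5.88 and 4.21 TPM. Renca held 0.141, 0.212 and 0.373 TPM and EMT6 0.0146, 0 and 0 TPM, so that the lines with the most Epcam had the least Cdh2. Against the mean of the other lines Cdh2 was lower in EMT6 by -3.49 (SE 0.15, adjusted p = 5.9e-17) and in Renca by -3.16 (adjusted p = 2.3e-16), and higher in CMS5a by 2.27, in CT26NYESO1 by 2.11 and in CT26 by 2.0. Between neighbours in the order, only the step from MC38OVA down to Renca passed the test. Over all 45 pairs of lines 24.9% of gene tests passed, and Cdh2 passed in 35 pairs.

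Taken as a share of Cdh1 plus Cdh2 TPM, Cdh1 made up 99.7% in Renca and 99.9% in EMT6. It made up 38.6% in MC38OVA, 37.7% in LL2 and 30.9% in MC38, and 2.76% to 10.2% in the other 5 lines. The share in EMT6 rests on a Cdh1 level of only 4.26 ± 1.23 TPM (SD, n = 3) beside almost no Cdh2, whereas Renca had 67.3 ± 10.4 TPM of Cdh1.

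Vim (chr2:13573927-13582826, plus strand) was abundant everywhere, from 751 TPM in a B16F10 library to 4956 TPM in a CT26 library. CT26 had 4956, 3348 and 3938 TPM, EMT6 4113, 3696 and 3187 TPM, and CT26NYESO1 3729, 3203 and 3282 TPM. At the other end, Renca had 964, 958 and 1087 TPM, CMS5a 794, 1080 and 949 TPM, and B16F10 936, 751 and 893 TPM. The 3 top lines overlapped one another, and at the bottom CMS5a overlapped both Renca and B16F10. Vim did not follow the cadherins: EMT6, without Cdh2, was among the highest, and CMS5a, with the most Cdh2, among the lowest. It was higher in CT26 by 1.28 (SE 0.16), in EMT6 by 1.12 and in CT26NYESO1 by 1.0, and lower in B16F10 by -1.20 and in CMS5a by -1.07, with adjusted p from 2.6e-07 to 1.1e-05. The call in CT26NYESO1 lay at the threshold and was lost under 17 of 43 alternatives. Scaling by median ratios ended those in EMT6 (0.96) and B16F10 (-0.62), and leaving out CMS5a replicate 1 ended that in CMS5a (-0.95). No step between neighbouring lines passed the test.

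Zeb1 (chr18:5591860-5775467, plus strand), a zinc-finger repressor of Cdh1, was highest in LL2 with 29.95, 26.0 and 26.4 TPM, followed by CT26 (22.2, 19.1 and 21.8 TPM) and CMS5a (22.9, 21.9 and 16.1 TPM). It was nearly absent from B16F10, with 0.201, 0.113 and 0.214 TPM, and low in B16F1, with 2.97, 1.06 and 0.965 TPM. Zeb1 was higher in LL2 by 1.81, in CT26 by 1.40 and in CMS5a by 1.33, and lower in B16F10 by -3.29 and in B16F1 by -2.07 (SE 0.21). The calls in CT26 and CMS5a were lost when B16F10 and B16F1 were left out of the comparison. Renca, the line with the most Cdh1, still had 6.18, 14.6 and 13.1 TPM of Zeb1, a level that overlapped those of EMT6, CT26NYESO1, MC38OVA and MC38. The Renca libraries with more Zeb1 also had more Zeb2, higher leukocyte scores (5.4 and 5.55, against 5.02 in replicate 1) and larger sums of fibroblast genes (965 and 1100 TPM, against 624 TPM); whether these set the Zeb1 level was not tested.

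Zeb2 (chr2:44983632-45117395, minus strand), the paralog of Zeb1, varied less. It was highest in LL2 (73.1, 67.1 and 59.6 TPM) and CT26 (68.0, 49.1 and 60.4 TPM), and lowest in Renca (6.57, 18.6 and 17.8 TPM), whose libraries lay below all the others. Zeb2 was lower in Renca by -1.59 (SE 0.22, adjusted p = 7.4e-07), its only call. Unlike Zeb1 it remained at 33.2, 23.9 and 27.5 TPM in B16F10 and 26.8, 26.3 and 21 TPM in B16F1. As a share of Zeb1 plus Zeb2 TPM, Zeb2 made up 99.4% in B16F10 and 93.9% in B16F1, and 55.1% in Renca, the lowest line mean. An antisense transcript, Zeb2os, overlaps Zeb2 and had 1.64 to 14 TPM; use of strand in the quantification is not stated, so reads of the pair may not be separated.

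Snai1 (chr2:167538195-167542814, plus strand), a repressor of Cdh1 whose promoter is printed above, had 56.9, 82.1 and 37.6 TPM in MC38, 78.8, 37.4 and 41.9 TPM in EMT6 and 36.8, 56.6 and 52.7 TPM in CMS5a. It had 0, 0.264 and 0.0865 TPM in B16F10 and 1.45, 0.570 and 0.230 TPM in B16F1, below every other library. Renca, at 10.9, 13 and 15.9 TPM, overlapped CT26 and CT26NYESO1. Snai1 was higher in MC38 by 2.11 (SE 0.22), in EMT6 by 1.93, in CMS5a by 1.86 and in MC38OVA by 1.38, and lower in B16F10 by -4.20 (adjusted p = 7.9e-15) and in B16F1 by -3.54. With B16F10 and B16F1 left out, the calls in EMT6, CMS5a and MC38OVA were lost. The single called step in its order was from Renca to B16F1 (3.07).

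Snai2 (chr16:14705852-14709385, plus strand), which encodes Slug, had another order. CMS5a (28.5, 34.6 and 23.6 TPM), CT26 (29.5, 17.5 and 20.4 TPM) and CT26NYESO1 (14.7, 16.6 and 13.9 TPM) were highest, and B16F10 (1.66, 0.678 and 1.05 TPM) and Renca (1.02, 0.583 and 1.15 TPM) lowest. B16F1, nearly without Snai1, kept Snai2 at 6.29, 8.54 and 5.94 TPM. Snai2 was higher in CMS5a by 2.21, in CT26 by 1.80 and in CT26NYESO1 by 1.23, and lower in Renca by -2.19 and in B16F10 by -2.03 (SE 0.17). Snai1 made up 93.5% of Snai1 plus Snai2 TPM in Renca and 90.4% in EMT6, against 11.9% in B16F10 and 9.55% in B16F1.

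Twist1 (chr12:33957671-33959829, plus strand), a bHLH factor, had the widest range of line means, 5.88 on the log2 scale. CT26 had 67.7, 49.5 and 60.5 TPM, CT26NYESO1 54.5, 65.3 and 53.9 TPM and LL2 51.9, 31.8 and 32.3 TPM. Renca fell to 1.66, 1.23 and 1.05 TPM, B16F1 to 0.566, 0.761 and 0.312 TPM and B16F10 to 0, 0 and 0.0529 TPM. All libraries of these 3 lines lay below all libraries of the other 7 lines, the lowest of which had 15.8 TPM. Twist1 was higher in CT26 by 2.44, in CT26NYESO1 by 2.41, in LL2 by 1.74 and in EMT6 by 1.46, and lower in B16F10 by -4.09, in B16F1 by -3.43 and in Renca by -2.78 (SE 0.15). The calls in EMT6 and LL2 were lost with B16F10 and B16F1 left out. The step from MC38OVA down to Renca was 2.96 (adjusted p = 2.3e-12).

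All 10 genes differed over the lines in the limma F test, with adjusted p from 1.9e-06 for Zeb2 to 1.3e-20 for Twist1, where 85.5% of all tested genes did. Of 100 tests of a gene in a line against the other lines, 40 passed at an adjusted p under 0.05 and a fold of at least 1. Against the share of all tested genes called in the same comparison, members called were 6 of 10 in CMS5a (13.7% of genes), 6 in Renca (22.9%), 6 in B16F10 (28.5%), 5 in CT26 (13.2%), 5 in CT26NYESO1 (12.6%), 4 in EMT6 (14.9%), 4 in B16F1 (21.7%), 2 in LL2 (14.5%), 1 in MC38 (12.3%) and 1 in MC38OVA (13.8%). The counts of Renca and B16F1 include Epcam and Esrp1, which the filter let in through lines where they are high, so nothing is read from these calls or from the F test of both genes. The median fold of the 10 genes was 1.0 in CT26, against 0.03 over all tested genes, and -1.32 in B16F10, against -0.48 over all tested genes. Scaling by median ratios raised the median of all genes in B16F10 by 0.50 and in B16F1 by 0.15, and lowered it by 0.11 to 0.14 in CT26NYESO1, MC38, EMT6 and CMS5a. In B16F10 it moved the share of calls that were higher to 41.3%, against 18.6% as deposited.

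**Figure D2:**
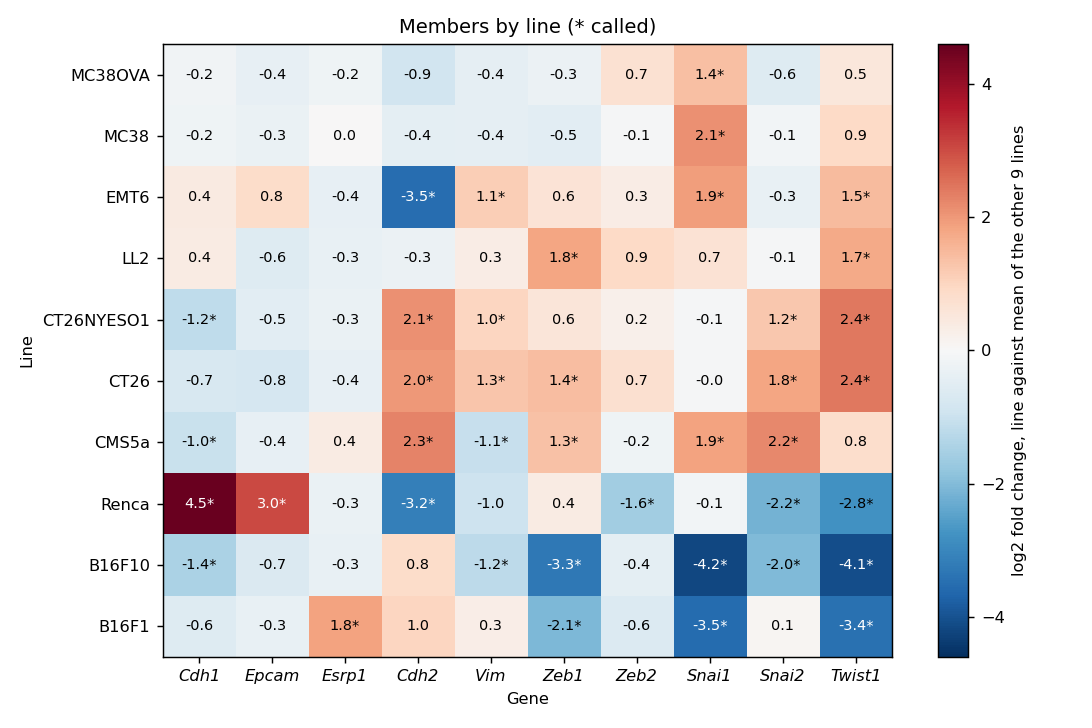
Log2 fold change of each gene (columns) in each line (rows) against the mean of the other 9 lines, with asterisks where the limma test passed at an adjusted p under 0.05 and a fold of at least 1 in either direction. Renca is high for Cdh1 (4.54) and Epcam (3.04), CT26 and CT26NYESO1 are high for Cdh2 and Twist1, and B16F10 and B16F1 are low for Zeb1, Snai1 and Twist1.

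To place each line on the span, an epithelial score (mean log2(TPM + 1) of Cdh1, Epcam and Esrp1) and a mesenchymal score (the same over the other 7 genes) were formed, and described without a test. The epithelial minus mesenchymal difference was -0.17 ± 0.11 in Renca (SD, n = 3 in each line), the most epithelial position. It was -2.34 ± 0.13 in B16F1, -2.57 ± 0.02 in B16F10, -3.64 ± 0.12 in EMT6, -3.96 ± 0.21 in MC38OVA and -4.03 ± 0.44 in MC38. The most mesenchymal positions were -4.52 ± 0.10 in LL2, -4.92 ± 0.22 in CMS5a, -5.25 ± 0.11 in CT26NYESO1 and -5.49 ± 0.09 in CT26. The libraries of Renca, and of B16F10 and B16F1 together, overlapped no other line, while those of MC38 overlapped both MC38OVA and EMT6. B16F10 and B16F1 reached their place through low mesenchymal scores, 2.85 and 3.64, near the 3.37 of Renca. B16F10 had the lowest epithelial score as well, 0.28, and the 1.30 of B16F1 included its Esrp1, against 3.20 in Renca. Esrp1, which passed the filter through B16F1 alone, averaged 2.01 (log2) in B16F1 and 0.04 in B16F10. No score without Esrp1 was formed, so nothing is read from the order of B16F1 against B16F10, or against EMT6 by epithelial score. Epcam likewise entered the score through Renca and EMT6 alone. Among the carcinomas EMT6 came next to Renca by the difference, with an epithelial score of 1.28 and a mesenchymal score of 4.92. No score without Epcam was formed, so nothing is read from the place of EMT6 against MC38OVA and MC38. Without Vim and Zeb2, the members most expressed by leukocytes, Renca stood at 1.24 and CT26 at -4.29, and CMS5a (-4.18) and CT26NYESO1 (-4.08) changed places, the only change of order.

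**Figure D3:**
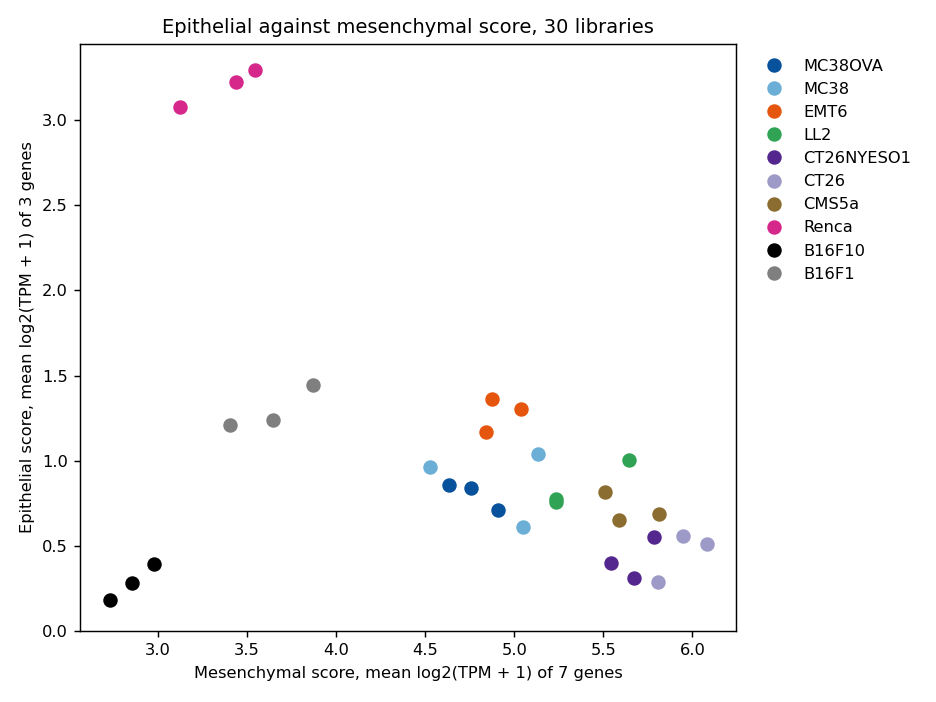
Epithelial score of 3 genes (y axis) against mesenchymal score of 7 genes (x axis), both as mean log2(TPM + 1), with a point per library. Renca lies at the top left, B16F10 at the bottom left with low values on both axes, and CT26 at the bottom right.

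Related lines were compared next. In MC38OVA against MC38, 0 of the 10 genes passed the limma test, against 1.31% of all genes, and 2 had an unadjusted p under 0.05, as did 11.2% of all genes. Zeb2 had 38.5, 65.2 and 76.2 TPM in MC38OVA and 39.4, 43.2 and 26.4 TPM in MC38, a log2 difference of 0.68 (SE 0.30, adjusted p = 0.33) with overlapping libraries. MC38OVA also had the higher mean leukocyte score, 7.12, against 6.06 in MC38, and with that score as a covariate the Zeb2 difference was 0.40 (SE 0.35, limma adjusted p = 1). In CT26NYESO1 against CT26, 0 of 10 passed the limma test, against 2.27% of all genes, and 2 had an unadjusted p under 0.05, as did 14.2% of all genes. Zeb1 had 14, 8.83 and 13.6 TPM in CT26NYESO1 and 22.2, 19.1 and 21.8 TPM in CT26, ranges that did not overlap, with a difference of -0.77 (SE 0.28, adjusted p = 0.14). The difference between the effects in these pairs was tested as an interaction, where limma called 0 of 10 genes, against 2.62% of all genes, and 2 had an unadjusted p under 0.05, as did 14.7% of all genes. These p values do not show that the pairs are alike.

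The melanoma sublines differed more. In B16F10 against B16F1, 4 of 10 genes were lower and 0 higher, against 16.4% and 4.53% of all genes, or 20.9% in either direction. The 4 include Esrp1, which passed the filter through B16F1 alone and so had to be lower, so that nothing is read from the count with it, and 3 of the other 9 genes were called. Vim averaged 860 ± 96.6 TPM in B16F10 and 2202 ± 308 TPM in B16F1 (SD, n = 3 each), a difference of -1.35 (SE 0.22, adjusted p = 1.2e-05). Snai2 averaged 1.13 ± 0.496 TPM in B16F10 and 6.92 ± 1.41 TPM in B16F1, a difference of -1.91 (adjusted p = 1.9e-07), and Esrp1 differed by -1.97 and Zeb1 by -1.10 (adjusted p = 0.0024). The libraries of the sublines did not overlap in these genes, Esrp1 among them. The share of all genes without overlap was not computed, so nothing is read from this. Cdh1 (-0.76) and Twist1 (-0.59) had an adjusted p under 0.05 but a fold under 1, and Cdh2 (-0.14) and Zeb2 (0.18) differed by less than their SE. With a pseudocount of 0.1, which gives low levels more room, Cdh1 (-1.43), Twist1 (-2.42) and Snai1 (-1.88) were called as well, and Zeb1 stood at -2.52. Without B16F1 replicate 1 only 2 of the 4 calls were left, since Esrp1 no longer passed the filter and Zeb1 stood at -0.77. Scaling by median ratios raised the median of all genes by 0.33 in this comparison, moved the share of calls that were higher to 41.7%, against 21.7% as deposited, and moved Vim to -0.97, which ended its call. Melanocyte genes summed to between 9793 and 14142 TPM in B16F10 and between 1799 and 7797 TPM in B16F1, and fibroblast genes to between 25.9 and 44.5 TPM in B16F10 and between 84.6 and 248 TPM in B16F1; the part of either in these differences was not tested.

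Because leukocytes express Vim and Zeb2, every gene was set against a leukocyte score, the mean log2(TPM + 1) of 10 genes (Arhgdib, Cd52, Cd53, Coro1a, Fermt3, Ikzf1, Laptm5, Lcp1, Ptprc and Was). Line means of this score ran from 4.08 in B16F10 and 4.24 in B16F1 to 6.65 in LL2 and 7.12 in MC38OVA, and the other 6 lines lay between 5.32 and 6.31. In B16F10, 9 of the 10 genes were lower than in the other lines and Arhgdib was higher, at 396 ± 47.8 TPM in B16F10 and 49.2 ± 23.1 TPM in B16F1 (SD, n = 3 each), so that it raised the B16F10 score. Over the 10 line means, Vim gave r = 0.22 (two-sided permutation p = 0.54, adjusted over the 10 genes 0.67) and rho = 0.28 (p = 0.43). CT26, with the most Vim, had a score of 5.69, and MC38OVA, with the highest score, had a middling 1423 ± 211 TPM of Vim (SD, n = 3). Zeb2 gave r = 0.64 (permutation p = 0.048, adjusted 0.12) and rho = 0.75 (p = 0.018, adjusted 0.088). Without the 2 lines farthest from the median score, B16F10 and B16F1, Zeb2 gave r = 0.67 (permutation p = 0.069) and Vim gave r = -0.02. Within lines, deviations of libraries from their line mean gave a descriptive r of 0.29 for Zeb2 and -0.03 for Vim, or 0.52 and 0.20 without the B16F10 and B16F1 libraries. The highest Zeb2 levels within MC38OVA, 65.2 and 76.2 TPM, were in the libraries with leukocyte scores of 7.62 and 7.27, against 38.5 TPM at 6.47.

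The strongest relation was that of Snai1, with r = 0.89 (permutation p = 0.0017, adjusted 0.017) and rho = 0.81 (permutation p = 0.0070, adjusted 0.070). It was the only gene with an adjusted p under 0.05 by r, and by rho there was none. It rested on the melanoma sublines, low for both: without them r was 0.51 (permutation p = 0.19), and within lines the descriptive r was -0.29. Zeb1 (r = 0.72, permutation p = 0.018, adjusted 0.061; rho = 0.50, p = 0.14) and Twist1 (r = 0.77, permutation p = 0.011, adjusted 0.057; rho = 0.45, p = 0.19) likewise gave -0.11 and 0.26 without B16F10 and B16F1. The leukocyte score of each library was also entered as a covariate in the limma fit. All 5 Vim calls were kept, with folds of 1.28 in CT26, 1.13 in EMT6, 1.0 in CT26NYESO1, -1.06 in CMS5a and -1.23 in B16F10. The fit has a mean per line, so the covariate was estimated only from deviations within lines, where Vim gave r = -0.03. The Vim folds could therefore hardly move, and nothing is read from the kept calls. The fold of Zeb2 in Renca was -1.47 and stayed called. The uncalled folds of Zeb2 moved in the lines with the highest and lowest scores, to 0.28 in MC38OVA, against 0.70 without the covariate, to 0.64 in LL2, against 0.92, to 0.05 in B16F10, against -0.43, and to -0.20 in B16F1, against -0.64. They moved less in MC38 (-0.16, against -0.06), EMT6 (0.17, against 0.35), CMS5a (-0.27, against -0.19), CT26 (0.73, against 0.72) and CT26NYESO1 (0.23, against 0.22).

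**Figure D4:**
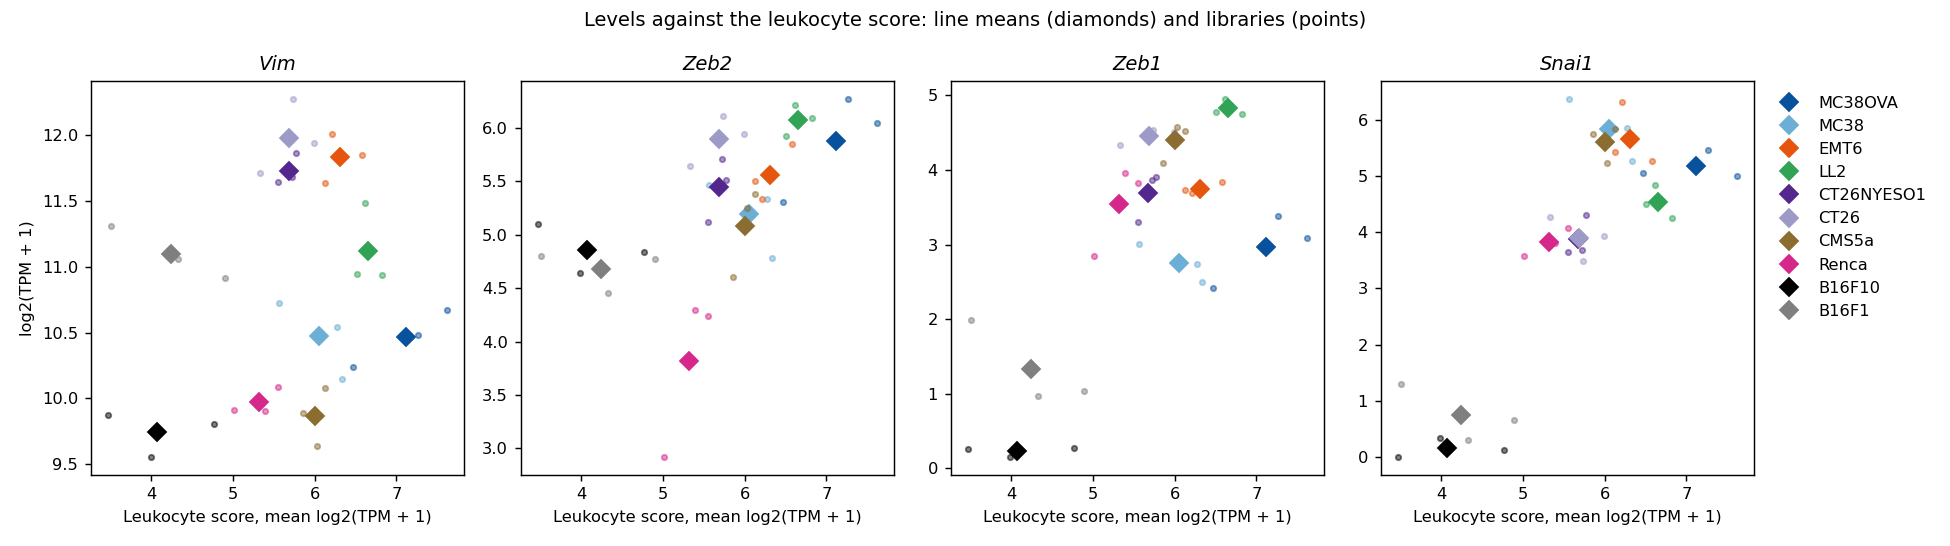
Levels of Vim, Zeb2, Zeb1 and Snai1 as log2(TPM + 1) (y axis) against the leukocyte score (x axis) in each library (small points) and as line means (diamonds). Among the 8 lines other than B16F10 and B16F1, Zeb2 gave r = 0.67 and Vim r = -0.02, and Zeb1 and Snai1 are set apart by low values in B16F10 and B16F1.

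Other genes of the same biology were described from lists. Of 27 epithelial junction, keratin and splicing genes, 20 were tested. In Renca 11 were higher and 1 lower (12.4% of all tested genes higher and 10.5% lower), with a median of 1.88, against -0.15 over all genes. In EMT6 11 were higher and 0 lower (10.2% and 4.70%), with a median of 1.36, against 0.04. Some list members, here and below, may have passed the filter only through lines where they are high, and had to be higher there. This was not checked for each, so nothing is read from the counts of higher genes or from list medians. Esrp2 was such a member, reaching 1 TPM only in Renca and EMT6. Both lines had the keratins Krt8 (926 ± 219 TPM in Renca and 610 ± 36.9 TPM in EMT6) and Krt18 (576 ± 176 TPM in Renca and 54.9 ± 10.6 TPM in EMT6; SD, n = 3 each). They differed in junction genes: Cldn3, a tight junction claudin, averaged 277 ± 58.1 TPM in Renca and 0.0159 TPM in EMT6, Cldn4 averaged 147 TPM in Renca and was listed at 0 in EMT6, and Cdh3, which encodes P-cadherin, averaged 28.5 TPM in Renca and 0.268 TPM in EMT6. Conversely Dsp, a desmosome protein, averaged 0.0865 TPM in Renca and 11.3 ± 0.939 TPM in EMT6, and the membrane protease Prss8 0.0524 TPM in Renca and 10.7 TPM in EMT6. LL2, with 5 higher and 2 lower (7.98% and 6.53%), also had Krt8 (109 ± 39.9 TPM) and Krt18 (128 ± 31.7 TPM), and the tight junction gene Ocln at 3.83 TPM. For the other lines the counts are listed with the shares of all genes. MC38OVA had 2 higher and 2 lower (10.2% and 3.59%), and MC38 0 and 2 (8.24% and 4.06%). CT26NYESO1 had 1 and 4 (6.84% and 5.71%), CT26 0 and 3 (8.25% and 4.91%), and CMS5a 1 and 5 (9.23% and 4.49%). The higher genes of MC38OVA and CT26NYESO1 were near the share of all genes. B16F10 had 0 and 5 (5.28% and 23.2%, so that the lower genes were near the share of all genes) and B16F1 0 and 5 (8.52% and 13.2%). Skin keratinocyte genes, of an epithelium next to these tumours, summed to 15.7 to 18.4 TPM in EMT6, where Trp63 alone averaged 13.6 TPM. They summed to 6.38 to 7.45 TPM in Renca, but also to 5.44 to 7.74 TPM in CT26 and 3.91 to 7.34 TPM in CT26NYESO1. Libraries of the other lines had at most 4.05 TPM. The part of these genes in the epithelial values was not tested.

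Of 8 epithelial transcription factors 4 were tested. Ovol2, a zinc-finger factor that represses Zeb1 in epithelial cells, averaged 14.5 ± 2.23 TPM in MC38OVA and 12.4 ± 1.10 TPM in MC38 and at most 0.0957 TPM in any other line. These lines were among the lower in Zeb1, at 7.11 ± 2.57 TPM in MC38OVA and 5.80 ± 1.21 TPM in MC38, but had little Cdh1. Klf5 was highest in EMT6 at 33.0 ± 3.13 TPM and Elf3 in Renca at 6.79 ± 1.04 TPM. Grhl2, which maintains Cdh1 expression in epithelia, averaged 0.720 TPM in B16F1 and 0.0473 TPM in Renca and did not pass the filter.

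Of 14 other factors linked to the transition 12 were tested. CMS5a had 7 higher and 0 lower (9.23% and 4.49% of all genes), and Renca 2 higher and 8 lower (12.4% and 10.5%), while B16F10 had 0 higher and 7 lower (5.28% and 23.2%) and B16F1 0 higher and 5 lower (8.52% and 13.2%). Prrx1, a homeobox factor of mesenchyme, averaged 149 ± 32.1 TPM in CT26 and 127 ± 15.4 TPM in LL2, against 2.08 TPM in Renca and 0.139 TPM in B16F10. Prrx2 was highest in EMT6 at 61.6 TPM. Twist2 split from its paralog Twist1: Renca had 42.7 ± 15 TPM of Twist2 beside 1.31 ± 0.314 TPM of Twist1, and EMT6 had 0.0679 TPM of Twist2 beside 31.8 ± 6.82 TPM of Twist1 (SD, n = 3 each). Renca was higher than the other lines for Twist2 by 2.08, and EMT6 lower by -3.82.

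All 18 mesenchymal effector genes, which encode matrix, contractile and protease proteins, were tested. In B16F10 0 were higher and 15 lower (5.28% and 23.2% of all genes), with a median of -2.89, against -0.48 over all genes, and B16F1 had 3 higher and 8 lower (8.52% and 13.2%). Renca, at the epithelial end by its score, had 7 higher and 2 lower (12.4% and 10.5%), among the higher Tnc (3.68), Lox (3.08) and Tagln (2.84), which encode a matrix glycoprotein, a collagen crosslinking enzyme and a smooth muscle actin-binding protein. EMT6 also had 7 higher and 2 lower (10.2% and 4.70%), with Acta2, smooth muscle actin, at 347 TPM. CMS5a had 8 higher and 2 lower (9.23% and 4.49%), with the gelatinase Mmp2 at 611 TPM, and LL2 had 6 higher and 1 lower (7.98% and 6.53%). At the mesenchymal end by score, CT26 had 5 higher and 4 lower (8.25% and 4.91%), with S100a4 at 6578 TPM, and CT26NYESO1 2 higher and 7 lower (6.84% and 5.71%), with a median of -0.79, against 0.04 over all genes. MC38OVA had 2 higher and 1 lower (10.2% and 3.59%) and MC38 4 higher and 2 lower (8.24% and 4.06%). Fibroblast marker genes summed to between 4603 and 5890 TPM in CMS5a, 1933 and 2924 TPM in EMT6 and 624 and 1100 TPM in Renca, and to between 25.9 and 44.5 TPM in B16F10; their part in the effector levels was not tested.

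**Figure D5:**
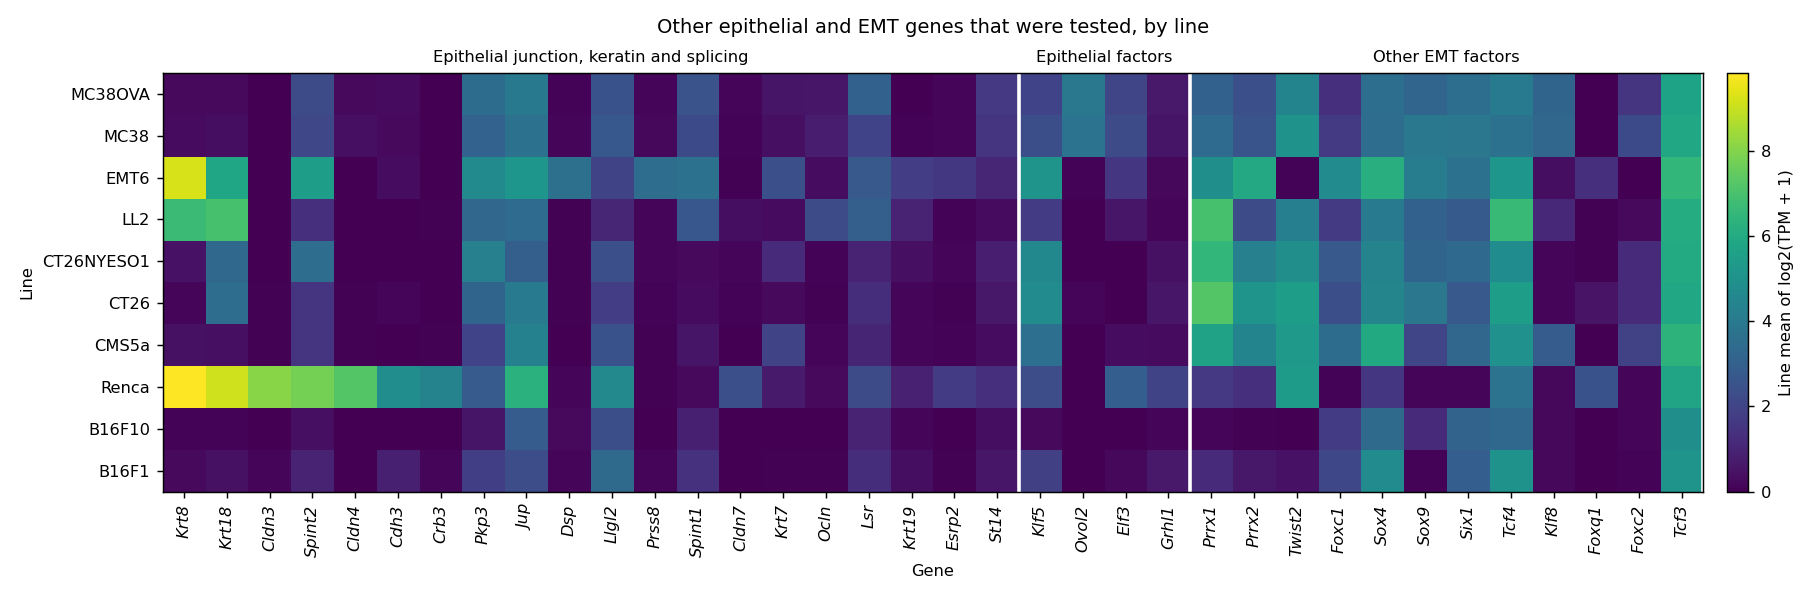
Line mean of log2(TPM + 1) (colour) of the tested genes of 3 lists (columns, ordered within a list by the range of line means) in each line (rows). Renca and EMT6 share Krt8 and Krt18 but not Cldn3, Cldn4 and Dsp, and B16F10 and B16F1 are low for Prrx1, Prrx2 and Twist2.

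Across the 10 line means of log2(TPM + 1), genes with patterns most like a member were sought among all tested genes, as a description. Epcam was most like Evpl (r = 0.995), and Cdh1 most like Aqp9 (r = 0.973) and Mst1r (r = 0.969). Twist1 was most like Ltbp1 (r = 0.989), Zeb1 like Zcchc24 (r = 0.983), and Snai1 like Arhgef28 (r = 0.982). Zeb2 was most like Gapvd1 (r = 0.974), Vim like Rps23 (r = 0.962), Cdh2 like Mmut (r = 0.952), Snai2 like Zfp57 (r = 0.973) and Esrp1 like Wfdc12 (r = 0.988). Among the members, Zeb1 and Twist1 gave r = 0.80, Zeb2 and Twist1 r = 0.77, and Zeb1 and Snai1 r = 0.76. Zeb1, Snai1 and Twist1 were each lowest in B16F10 and B16F1, low points that their r share. These r were not computed without the melanoma sublines, so they do not show that the factors go together in the other lines. Cdh2 went against Cdh1 (r = -0.75), and Zeb1 against Cdh1 gave r = 0.23.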

How the data were processed

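RNA-seq of 30 libraries, labelled as CD45+ cells from tumours of 10 lines, was taken as the authors deposited it, in TPM. Per the submitters' processing notes, Trim Galore 0.6.5, STAR 2.7.3a, StringTie 2.1.2 and mm10 were used; the annotation and the strand setting are not given in the sources used here. TPM keep no read numbers, so the depth behind a value cannot be stated. The check for duplicated symbols, identical libraries and columns of no sample found 0 of each. Lines and replicates were taken from the titles.

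The 17944 genes reaching 1 TPM in 3 libraries were analysed as log2(TPM + 1), a pseudocount of 1 that understates folds of low genes, in limma 3.58.1 (R 4.3.3, trend in the variance, a mean per line, 20 residual degrees of freedom). A call needed p under 0.05 after Benjamini-Hochberg adjustment within the comparison, and a log2 fold of at least 1. The procedure was tested on simulated data. Correlations used 100000 permutations. Python 3.11.15, numpy 2.4.6, pandas 2.3.3, scipy 1.17.1 and matplotlib 3.10.9 were used. Coordinates are from GENCODE M21 (mm10).

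The 10 genes and all lists were chosen with earlier results of these data known. All members are named, with the 3 members of widest range from each list of epithelial and transition genes, members on which a result turns, and the most similar genes of each member. Alternatives were a pseudocount of 0.1, no filter, other scalings, no fold threshold, left-out libraries, replicate blocks, other reference means and a leukocyte covariate.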

Additional observations from a re-analysis of the deposited data

How the results depend on the processing

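Of 44 called results of single genes, 30 stayed called under every alternative in which the gene was tested, 14 lost the call under some and 0 reversed. The 30 include Esrp1 in B16F1 and in B16F10 against B16F1. Esrp1 failed the filter when a B16F1 library was left out, so these calls were not kept there. Over the lines, 40 calls became 72 with no fold threshold, 55 with a pseudocount of 0.1 and 36 to 42 when replicates were left out. The pseudocount of 0.1 added calls of Cdh2 in B16F10 (1.42) and B16F1 (1.59) and of Twist1 in MC38OVA (1.04), MC38 (1.47) and CMS5a (1.35), and moved Cdh2 in EMT6 to -6.44. Calls between related lines went from 4 to 7 with a pseudocount of 0.1, and to 2 to 4 when replicates were left out. Between neighbouring lines, leaving out a replicate number gave 7 to 11 calls, and the F test 9 to 10 members when replicates were left out, as Esrp1 then failed the filter. Leaving out B16F10 and B16F1 ended the calls of Snai1 in MC38OVA, EMT6 and CMS5a, Twist1 in EMT6 and LL2, and Zeb1 in CT26 and CMS5a. It also reversed uncalled folds, to -0.014 for Twist1 in MC38, -0.44 in MC38OVA and -0.14 in CMS5a, -0.12 for Zeb1 in CT26NYESO1, -0.31 for Snai1 in LL2, and -0.0536 for Zeb1 in EMT6 against the other lines. B16F10 and B16F1 had the lowest line means of Twist1, Zeb1 and Snai1, so the mean of the compared lines rises without them. Cdh2 in MC38 reversed to 0.0047 with a pseudocount of 0.1. Other scalings ended the calls of Vim in EMT6 and B16F10. The epithelial minus mesenchymal difference of Renca changed sign to 1.24 without Vim and Zeb2. It was -0.65 with a pseudocount of 0.1, and -0.23 to -0.13 with replicates left out. Renca stayed first in the order in each of these settings. With a pseudocount of 0.1, LL2 and CMS5a changed places, as did MC38OVA and MC38, which also did so without replicate 1.

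Genes related to the leukocyte score after adjustment numbered 1, against 0 over 7 families, 2 with Ptprc alone, 3 with a pseudocount of 0.1, and 0 without B16F10 and B16F1, where r of Vim reversed to -0.0226. Same-numbered libraries of different lines showed no common deviation in the median (r = 0.0048, lowest -0.47, with 46 of 135 pairs over 0.1). The numbers were therefore not used as pairs, but a median cannot exclude pairing or batches among part of the lines. The replicate block left the counts at 40 over the lines, 4 between related lines, 11 between neighbours and 10 in the F test.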
